A study of Mus musculus with 12 samples.

Results

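The 10 genes described here are markers of the mural cells of blood vessels: 5 that are used to find pericytes (Rgs5, Kcnj8, Abcc9, Cspg4 and Mcam) and 5 of the contractile apparatus of smooth muscle (Acta2, Myh11, Tagln, Cnn1 and Des). They were taken by their symbols from the 24422 genes of the deposited read count tables of mouse adipose tissue stromal cells, and all 10 passed the low-count filter that left 16713 genes for testing. The 12 libraries form 4 groups of 3. SD mCherry (replicates 1, 2 and 3) is p21+/mcherry on a standard diet, HFD mCherry (15, 17 and 20) is that genotype on a high-fat diet, and HFD Tert (25, 26 and 27) and HFD TertCi (30, 31 and 33) are p21+/mcherry-Tert and p21+/mcherry-TertCi on the high-fat diet. Every group therefore carries an mCherry allele at p21 (Cdkn1a). The design text says that the p21 promoter drives Tert, the catalytic subunit of telomerase, or TertCi, so a product is made only where p21 is active. It gives the high-fat diet control as p21+/-, whereas the sample labels give p21+/mcherry, and the labels were followed. The labels give neither age, sex, fat depot nor batch. They do not say whether the replicates are separate animals, so p-values measure only the spread between these libraries.

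Pericytes sit on the outside of capillaries within the basement membrane of the endothelium, and smooth muscle cells wrap arterioles, arteries and veins. Both belong to one lineage continuum in adipose tissue, where the mural niche of vessels is also known as a source of adipocyte precursors. Contractile genes depend on serum response factor with its partner myocardin, which acts through the CArG box, while pericytes depend on PDGF-B from endothelial cells and on Notch3 signalling.

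The promoters of 3 genes are shown because their transcripts followed different patterns across the libraries, described below: Acta2 as a contractile gene, and Kcnj8 and Abcc9, which lie beside each other on chromosome 6 and encode the pore and the regulatory subunit of a single potassium channel. Sequences were read from the RefSeq promoter table of GRCm38.p6, which held 8 of the 10 genes (Myh11 and Tagln were not matched), on the minus strand, on which all 3 genes lie. Each window runs from 250 bases before to 50 bases after the RefSeq start, from which distances are counted. For Acta2 that start lies 217 bases inside the first base of the GENCODE gene, so both Acta2 stretches fall within its GENCODE span, for Abcc9 it lies 41 bases inside, and for Kcnj8 both starts are the same base. Capitals mark a CArG box with at most 1 letter different from the full motif. The Acta2 stretches are chr19:34255438-34255467 and chr19:34255388-34255417, the Kcnj8 stretch is chr6:142571615-142571864 and the Abcc9 stretch is chr6:142702316-142702524.
Acta2, box 84 bases before the start: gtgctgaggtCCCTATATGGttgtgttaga
Acta2, box 34 bases before the start: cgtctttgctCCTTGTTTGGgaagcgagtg
Kcnj8, box 46 bases before the start: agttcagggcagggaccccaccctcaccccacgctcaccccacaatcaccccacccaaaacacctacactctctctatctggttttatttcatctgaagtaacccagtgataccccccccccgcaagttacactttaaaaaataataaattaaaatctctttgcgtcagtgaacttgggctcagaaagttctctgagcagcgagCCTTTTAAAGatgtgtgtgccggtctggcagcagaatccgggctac
Abcc9, no such box: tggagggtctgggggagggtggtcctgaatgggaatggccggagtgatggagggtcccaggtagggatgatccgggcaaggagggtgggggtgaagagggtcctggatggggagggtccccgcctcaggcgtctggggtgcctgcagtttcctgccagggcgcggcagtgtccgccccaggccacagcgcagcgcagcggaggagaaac
The full CArG box, searched on both strands, was in 0 of the 8 windows and in 1.63% of the 32851 windows of the table. With at most 1 letter different, a search chosen after the full motif had given no match, it was in 3 of the 8 (Acta2, Cspg4 and Kcnj8) and in 21.1% of all windows. The MCAT core CATTCC was in 2 of the 8 (Abcc9 and Acta2) and in 14.7% of all windows, and the RBPJ core TGGGAA, the element of Notch signalling, was in 3 of the 8 (Kcnj8, Abcc9 and Acta2) and in 25.6%. The Kcnj8 match begins at the start itself, just past the stretch printed above. In Abcc9 the RBPJ core overlaps the MCAT core. A match in a window describes its letters only.

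In the GENCODE M21 annotation of GRCm38, Kcnj8 spans chr6:142564837-142571614 and Abcc9 chr6:142587862-142702315. Acta2 lies at chr19:34241090-34255590, Myh11 at chr16:14194535-14291372, and Rgs5 and Des on chromosome 1 at chr1:169655501-169695813 and chr1:75360329-75368579. Chromosome 9 holds 4 of the genes: Cnn1 at chr9:22099216-22109630, Mcam at chr9:44134469-44142727, Tagln at chr9:45929619-45936058 and Cspg4 at chr9:56865033-56899870. The sources used here do not say whether counting used strand, so reads of overlapping genes on opposite strands cannot be told apart. This bears most on Tagln, which shares 1349 of its 1988 exonic bases with Pcsk7 and Gm48529 on the other strand. Des shares 220 bases with Gm15179, Abcc9 shares 158 with 5330439B14Rik and Mcam shares 17 with Gm10687. Acta2 also has near-identical actin paralogs, Actg2 and Acta1, and counting could split their reads.

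Libraries held 16430330 to 19486965 counts. Transcripts of the male reproductive tract divided them: Crisp1, an epididymal secretory protein, stood at 641 to 14780.3 CPM (read counts scaled to an equal TMM-adjusted library size) in 8 libraries and at 0 to 0.529 CPM, or 0 to 9 counts, in the other 4. The 4 were replicates 2 of SD mCherry, 20 of HFD mCherry, 27 of HFD Tert and 31 of HFD TertCi, so each group had 2 libraries with Crisp1 above 100 CPM and 1 below. The contractile genes moved with this division. Their differences for diet, and for HFD Tert and HFD TertCi averaged against HFD mCherry, are therefore also given within it.

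Per kilobase of exon and averaged over the 12 libraries, the contractile genes were the more abundant class. Tagln stood at 1409 CPM per kb, Acta2 at 674, Cnn1 at 638, Des at 399 and Myh11 at 256. Of the pericyte genes, Mcam stood at 70.5 CPM per kb, Kcnj8 at 28.2, Rgs5 at 27.3, Abcc9 at 8.97 and Cspg4 at 4.18. The contractile genes were also the more variable, with the highest library 164 times the lowest for Cnn1 and 13.3 times for Tagln, against 8.92 times for Rgs5 and 1.99 times for Mcam.

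Among the contractile genes, every group mean was lowest in HFD mCherry. Acta2, the smooth muscle actin, stood at 1149, 575 and 3045 CPM in SD mCherry 1, 2 and 3, and at 419.8, 404 and 169 CPM in HFD mCherry 15, 17 and 20. It stood at 2336, 3826 and 528 CPM in HFD Tert 25, 26 and 27, and at 2316, 854 and 2135 CPM in HFD TertCi 30, 31 and 33. Thus all 3 HFD mCherry libraries lay below the 9 others, and the library under 100 CPM of Crisp1 was the lowest of its group each time. Tagln, the actin-bundling protein transgelin, stood at 2003, 1121 and 6606 CPM in SD mCherry and at 649, 915 and 497 CPM in HFD mCherry. In HFD Tert it stood at 4863, 6262 and 1341 CPM, and in HFD TertCi at 3943, 2019 and 3386 CPM. For Tagln too, HFD mCherry did not overlap any other group.

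Myh11, the smooth muscle myosin heavy chain, separated the groups less completely. It stood at 2032, 393 and 5016 CPM in SD mCherry, and at 469, 655 and 194 CPM in HFD mCherry. In HFD Tert it stood at 3439, 4767 and 234 CPM, and in HFD TertCi at 3029, 342 and 2744 CPM. The 4 libraries with low Crisp1 were the 4 lowest of the 12 for Myh11, which makes every group overlap HFD mCherry. Cnn1, the actin-binding protein calponin, stood at 1282, 256 and 5547 CPM in SD mCherry, 309, 403 and 33.9 CPM in HFD mCherry, 3142, 4569 and 109 CPM in HFD Tert, and 2799, 239 and 2257 CPM in HFD TertCi. Des, the intermediate filament desmin, stood at 1169, 386 and 3865 CPM in SD mCherry, 356, 422 and 129.8 CPM in HFD mCherry, 2838, 3811 and 207 CPM in HFD Tert, and 2540.3, 292 and 1940.0 CPM in HFD TertCi. In both, as in Myh11, 1 library of each other group lay within the range of HFD mCherry.

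**Figure D1:**
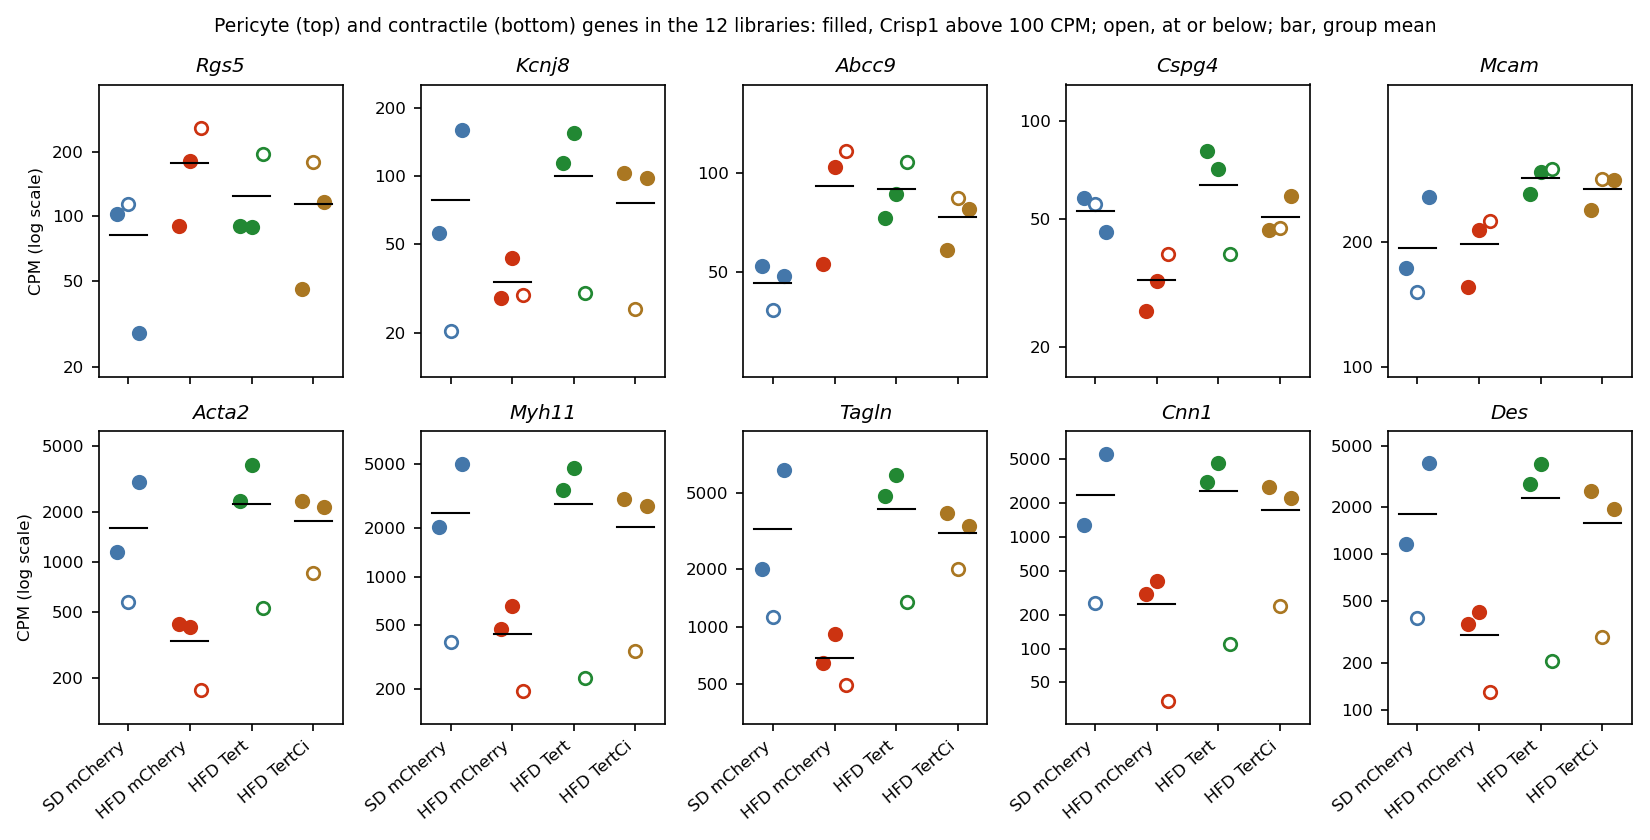
CPM of each gene (log scale) in each library by group, pericyte genes above and contractile genes below; filled points are libraries with Crisp1 above 100 CPM, open points those at or below it, and bars are group means. For Acta2 and Tagln the 3 HFD mCherry points lie below all others, and for Myh11 the 4 open points are the 4 lowest.

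The first comparison asked what the high-fat diet did in the mCherry genotype. Acta2 averaged 1589.8 ± 1293 CPM in SD mCherry but 331 ± 141 CPM in HFD mCherry (± standard deviation, SD, n = 3), a log2 fold change of -2.26 ± 0.79 (SE) with an adjusted p of 0.133 in edgeR's quasi-likelihood test over all 16713 genes. Tagln averaged 687 ± 212 against 3243 ± 2945 CPM, a log2 fold change of -2.24 ± 0.71 (edgeR adjusted p = 0.111). Myh11 differed by -2.50 ± 1.16, Cnn1 by -3.25 ± 1.495 and Des by -2.58 ± 1.13 on the log2 scale, with edgeR adjusted p-values of 0.198 to 0.218. All 5 contractile genes were thus lower in the high-fat diet group by a median of -2.50, against -0.075 over all genes tested, but no contractile gene passed the threshold of an adjusted p under 0.05. In bulk RNA, fewer cells of a type and less RNA per cell cannot be told apart.

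Of the 10 genes, 0 were called by edgeR for diet, against 0.0479% of all genes tested. At an unadjusted p under 0.05 there were 5, against 24.1% of all genes: 1 higher (Abcc9, against 14.1% higher) and 4 lower (Acta2, Tagln, Des and Cspg4, against 10% lower). The groups did not overlap for 4 genes, 1 higher (Abcc9) and 3 lower (Acta2, Tagln and Cspg4), against 25.5% of all genes. The Abcc9 separation was narrow, with SD mCherry 1 at 52.2 CPM and HFD mCherry 15 at 52.9 CPM. It rested on the TMM scaling, since SD mCherry 1 held 1026 Abcc9 counts of 17111618 and HFD mCherry 15 held 958 of 17170652. DESeq2 called 3 of them, Abcc9 higher (adjusted p = 0.0328) and Acta2 (0.0179) and Tagln (0.00883) lower, against 12.9% of all genes. With limma-voom 0 of the 10 were called, against 0% of all genes. Without SD mCherry 3, the library with the highest Myh11, Tagln, Cnn1 and Des, the contractile median was -1.38.

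The next 2 comparisons set the Tert and the TertCi allele against the mCherry allele under the same high-fat diet, and both use the same 3 HFD mCherry libraries. Acta2 averaged 2230.2 ± 1651 CPM (SD, n = 3) in HFD Tert and 1768 ± 797 CPM in HFD TertCi, log2 fold changes of 2.75 ± 0.80 (edgeR adjusted p = 0.198) and 2.42 ± 0.79 (edgeR adjusted p = 0.237). Tagln averaged 4155 ± 2535 and 3116 ± 990.0 CPM, log2 fold changes of 2.60 ± 0.72 (edgeR adjusted p = 0.195) and 2.18 ± 0.71 (edgeR adjusted p = 0.235). For Myh11, Cnn1 and Des, the log2 fold changes were 2.68, 3.39 and 2.92 in HFD Tert and 2.21, 2.83 and 2.395 in HFD TertCi, with edgeR adjusted p-values of 0.259 to 0.404. The median of the contractile genes was 2.75 for HFD Tert and 2.39 for HFD TertCi, against -0.053 and -0.039 over all genes.

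Again, edgeR called 0 of the 10 genes in either comparison, against 0% and 0.012% of all genes. For HFD Tert, 7 genes had an unadjusted p under 0.05, all higher, against 6.62% of all genes higher at that level, and 3 did not overlap HFD mCherry (Acta2, Tagln and Mcam, all higher), against 9.99%. For HFD TertCi, 3 had an unadjusted p under 0.05, against 5.76%, and 4 did not overlap (Acta2, Tagln, Mcam and Cspg4, all higher), against 9.45%. DESeq2 called 4 for HFD Tert (Acta2, Tagln, Des and Cspg4), against 1.92% of all genes called higher. It called 2 for HFD TertCi (Acta2 and Tagln), against 1.37%. With limma-voom 0 of the 10 were called in both, against 0% and 0.012% of all genes.

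With both knock-in groups averaged against HFD mCherry, the log2 fold changes were 2.59 ± 0.75 for Acta2 (edgeR adjusted p = 0.106) and 2.39 ± 0.66 for Tagln (edgeR adjusted p = 0.0994). They were 2.45 for Myh11, 3.11 for Cnn1 and 2.66 for Des, with edgeR adjusted p-values of 0.194 to 0.238. edgeR called 0 of the 10 genes, against 0.168% of all genes, 7 had an unadjusted p under 0.05, all higher, against 7.56%, and 3 did not overlap (Acta2, Tagln and Mcam, all higher), against 6.01%. DESeq2 called 5 of the 10 higher (Acta2, Tagln, Myh11, Des and Cspg4), against 3.55% of all genes. With limma-voom 0 of the 10 were called, against 0.0718% of all genes. With each library left out in turn, edgeR called 0 to 3 of the 10. The 3 calls came without HFD Tert 27, the library with low Crisp1 in that group, against 3.06% of all genes.

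No gene separated HFD Tert from HFD TertCi. edgeR called 0 of the 10, against 0% of all genes. The log2 fold changes ran from 0.091 ± 0.23 (Mcam) to 0.56 ± 1.38 (Cnn1), with edgeR adjusted p-values of 1 throughout and 0 unadjusted p under 0.05, against 1.36% of all genes. The groups did not overlap for 0 of the 10 genes, against 5.13% of all genes, so the 10 were near the share of all genes. The standard errors of the contractile genes, 0.68 to 1.38 on the log2 scale, were larger than each of these differences. Over the 4 groups together, the F-test in edgeR called 0 of the 10 genes, against 0.012% of all genes, and its lowest adjusted p was 0.197, for Tagln.

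**Figure D2:**
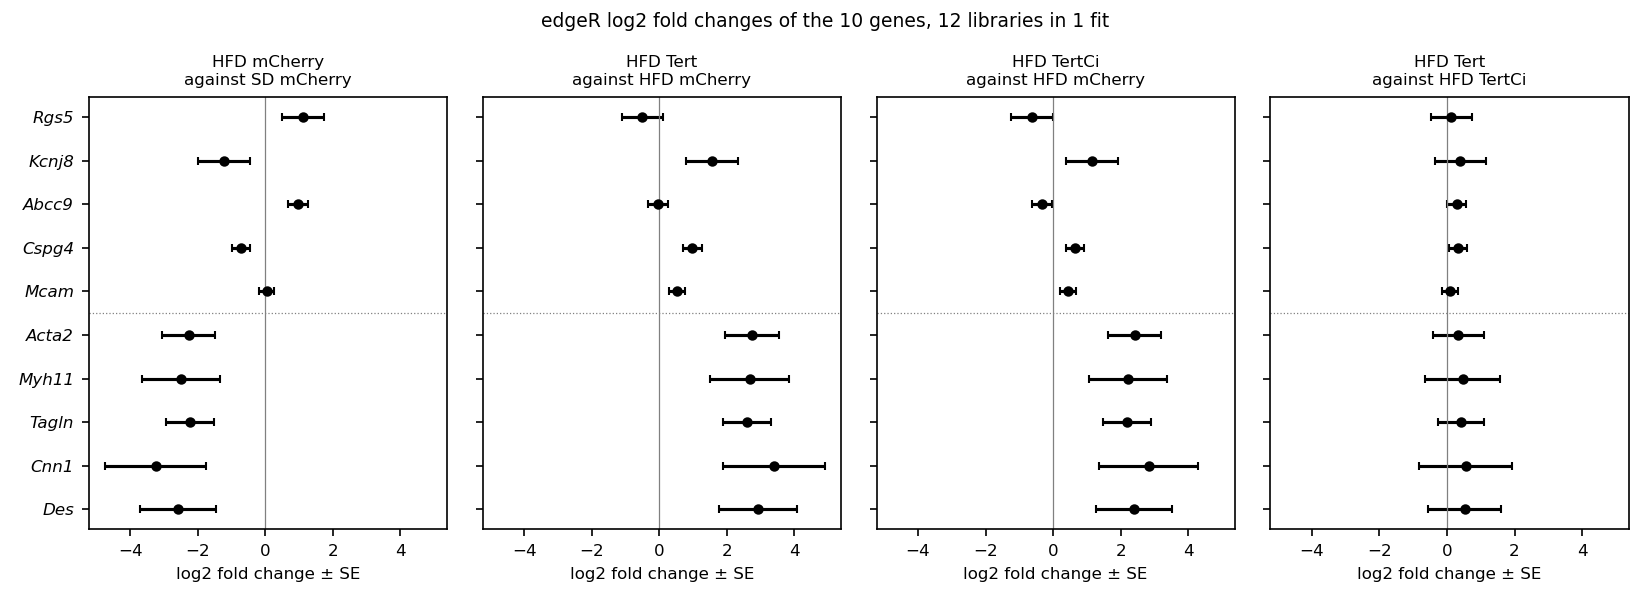
edgeR log2 fold change ± SE of each gene in 4 comparisons, with all 12 libraries in 1 fit; points right of 0 are higher in the group named first. The contractile genes lie left of 0 for diet, right of 0 for Tert and TertCi against HFD mCherry, and within their SE of 0 for Tert against TertCi.

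The pericyte genes did not move as a class. Rgs5, a regulator of G protein signalling and a common marker of pericytes, stood at 103, 114 and 28.7 CPM in SD mCherry 1, 2 and 3, and at 90.5, 182 and 256 CPM in HFD mCherry 15, 17 and 20. It stood at 90.3, 89.6 and 195 CPM in HFD Tert, and at 46.2, 179 and 117 CPM in HFD TertCi. The 2 lowest values were in SD mCherry 3 and HFD TertCi 30, where contractile genes were high, and the highest was in HFD mCherry 20, where all 5 contractile genes were at their lowest. For diet its log2 fold change was 1.11 ± 0.62 (edgeR adjusted p = 0.290), the opposite sign to the contractile genes. Against HFD mCherry it was -0.50 ± 0.61 in HFD Tert and -0.63 ± 0.62 in HFD TertCi (edgeR adjusted p = 0.709 and 0.665), with all groups overlapping.

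Kcnj8 and Abcc9 encode the pore (Kir6.1) and the sulfonylurea receptor (SUR2) of the ATP-sensitive potassium channel of mural cells, and their transcripts did not run in parallel. Kcnj8 stood at 55.7, 20.4 and 159 CPM in SD mCherry, 28.8, 43.1 and 29.4 CPM in HFD mCherry, 114, 155 and 30.3 CPM in HFD Tert, and 103, 25.6 and 97.8 CPM in HFD TertCi. SD mCherry 3 was the highest, as for Myh11, Tagln, Cnn1 and Des, and SD mCherry 2 was the lowest, whereas all 5 contractile genes were lowest in HFD mCherry 20. Abcc9 stood at 52.2, 38.3 and 48.8 CPM in SD mCherry, 52.9, 105 and 117 CPM in HFD mCherry, 73.2, 86.7 and 108 CPM in HFD Tert, and 58.2, 83.9 and 78.1 CPM in HFD TertCi. The 3 SD mCherry libraries were the 3 lowest for Abcc9. The ratio of Kcnj8 to Abcc9 counts ran from 0.252 in HFD mCherry 20 to 3.27 in SD mCherry 3.

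For diet, the log2 fold change of Kcnj8 was -1.22 ± 0.77 (edgeR adjusted p = 0.341) and that of Abcc9 was 0.98 ± 0.29 (edgeR adjusted p = 0.101), and the difference between these 2 genes was not tested. Against HFD mCherry, Kcnj8 was higher by 1.56 ± 0.78 in HFD Tert and by 1.17 ± 0.77 in HFD TertCi, and Abcc9 differed by -0.034 ± 0.29 and -0.32 ± 0.29, all with edgeR adjusted p-values of 0.340 or more.

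Cspg4, the NG2 proteoglycan of the pericyte surface, stood at 57.7, 55.6 and 45.4 CPM in SD mCherry and 25.9, 32.0 and 38.8 CPM in HFD mCherry. It stood at 81.2, 71.1 and 38.7 CPM in HFD Tert and 46.0, 46.7 and 58.6 CPM in HFD TertCi. HFD mCherry lay below SD mCherry and HFD TertCi without overlap, and met HFD Tert only at HFD Tert 27. The log2 fold changes were -0.72 ± 0.27 for diet (edgeR adjusted p = 0.160), 0.98 ± 0.27 for HFD Tert (0.195) and 0.65 ± 0.27 for HFD TertCi (0.310).

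Mcam, the adhesion molecule CD146, which endothelial cells also carry, varied least. It stood at 172, 151 and 256 CPM in SD mCherry, 155, 214 and 225 CPM in HFD mCherry, 261, 295 and 300.0 CPM in HFD Tert, and 238, 283 and 282 CPM in HFD TertCi. All 6 knock-in libraries lay above the 3 HFD mCherry libraries, with log2 fold changes of 0.53 ± 0.23 and 0.44 ± 0.23 (edgeR adjusted p = 0.298 and 0.414). Its diet difference was 0.036 ± 0.23 on the log2 scale. The summed level of 12 endothelial markers was 2635 to 6582 CPM in the knock-in libraries, 2057 to 3708 CPM in HFD mCherry and 1111 to 1521 CPM in SD mCherry, and its part in the Mcam values was not tested. The median log2 fold change of the 5 pericyte genes was 0.036 for diet, 0.53 for HFD Tert and 0.44 for HFD TertCi.

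Within the Crisp1 division, the contractile differences kept their sign for diet and for both knock-in groups against HFD mCherry. In the 8 libraries above 100 CPM of Crisp1, the contractile genes differed by -2.35 (Acta2) to -3.26 (Cnn1) for diet and by 2.53 (Tagln) to 3.13 (Cnn1) for the average of the knock-in groups, with 0 of the 10 called by edgeR, against 0% of all genes in both. In the 4 others, which give 1 library a group and so no test, the diet differences in log2(CPM + 0.5) were -1.77 for Acta2, -1.02 for Myh11, -1.17 for Tagln, -2.90 for Cnn1 and -1.57 for Des. The averaged knock-in values in those 4 were 1.99 for Acta2, 1.73 for Tagln, 2.23 for Cnn1, 0.92 for Des and 0.54 for Myh11. HFD Tert against HFD TertCi did not keep its sign in the 4: all 5 contractile genes lay between -1.13 (Cnn1) and -0.50 (Des), against 0.33 to 0.56 in all 12. Kcnj8 did not keep its sign there, at 0.51 for diet and -0.076 for the knock-in groups, against -1.58 and 1.70 in the 8.

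With the Crisp1 division added to the edgeR model as a 2-level term, an alternative chosen after seeing the data, all 5 contractile genes were called lower for diet, against 2.42% of all genes called lower. Acta2 fell by 2.14 (adjusted p = 0.0212), Cnn1 by 3.13 (0.0209), Tagln by 2.02 (0.0326), Des by 2.21 (0.0350) and Myh11 by 1.96 (0.0470) on the log2 scale. For the averaged knock-in groups, Acta2, Tagln, Cnn1 and Des were called higher in that model, by 2.45, 2.25, 2.89 and 2.13 with edgeR adjusted p-values of 0.0199 to 0.0442, against 1.18% of all genes called higher, and Myh11 was not (1.83, adjusted p = 0.0624). With the mean level of the epididymis and vas deferens list as a covariate in place of the term, 0 of the 10 were called for diet, against 11.3% of all genes, and the contractile median was -1.64. The pericyte genes had 0 calls in both models for diet and for the averaged knock-in groups, and for HFD Tert and HFD TertCi taken singly 0 of the 10 genes were called with the term, against 0% and 0.018% of all genes. With the covariate, 2 were called for HFD Tert (Acta2 and Tagln), 1 for HFD TertCi (Acta2) and 2 for the averaged groups (Acta2 and Tagln), against 6.5%, 5.7% and 12% of all genes.

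**Figure D3:**
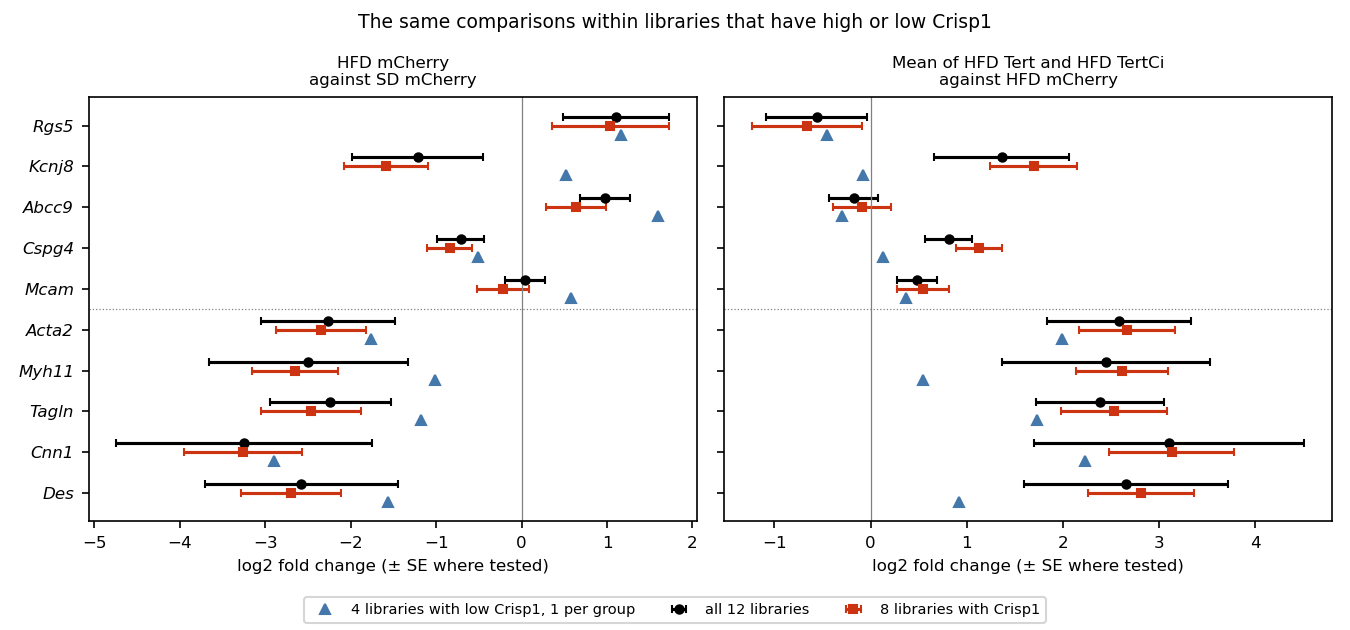
Log2 fold changes of the 10 genes (edgeR, or differences of log2(CPM + 0.5) for the 4) for diet (left) and for the mean of both knock-in groups against HFD mCherry (right) in all 12 libraries, in the 8 with Crisp1 above 100 CPM, and in the 4 at or below it; bars are ± SE, absent for the 4, which hold 1 library a group. The contractile genes keep their side of 0 in all 3 sets, Kcnj8 changes side in the 4, and Mcam changes side for diet in the 8.

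The libraries with Crisp1 also differed among groups in what else they held. Akr1b7, an aldose reductase-like protein known from the vas deferens, stood at 7826 and 38013 CPM in SD mCherry 1 and 3, 12462 and 7055 CPM in HFD Tert 25 and 26, and 22741 and 19136 CPM in HFD TertCi 30 and 33, but at 970.3 and 1347 CPM in HFD mCherry 15 and 17. Within the 8 libraries, HFD mCherry was therefore lowest for Akr1b7, as it was for Acta2, Myh11, Tagln, Cnn1 and Des. Gpx5, an epididymal glutathione peroxidase, had another pattern, at 16086 CPM in HFD mCherry 15, 2769 CPM in SD mCherry 3 and 0 to 3.95 CPM in the other 10. Actg2, the actin of visceral smooth muscle, stood at 487, 88.8 and 1815 CPM in SD mCherry, 452, 157 and 14.6 CPM in HFD mCherry, 1472, 2310.4 and 57.2 CPM in HFD Tert, and 1337, 118 and 1259 CPM in HFD TertCi. It was highest in libraries with high Myh11, and in each group lowest in the library with low Crisp1.

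The summed level of 9 visceral smooth muscle genes was 116 to 601 CPM in HFD mCherry, 230.2 to 4269 CPM in SD mCherry, 127 to 4253 CPM in HFD Tert and 219 to 2551 CPM in HFD TertCi. All 7 that passed the filter were lower for diet, by a median of -1.94, and higher in HFD Tert and HFD TertCi, by medians of 2.62 and 2.12, with 0 called by edgeR. Of 15 secretory genes of the epididymis and vas deferens, the sum was 13.8 to 36949 CPM in HFD mCherry, 72.6 to 59854 CPM in SD mCherry, 7.87 to 20587 CPM in HFD Tert and 177 to 33194 CPM in HFD TertCi. The sum of 14 skeletal muscle markers was 15.6 to 825 CPM. Acta1 and Ckm, at 607 and 200.5 CPM, made up most of the highest sum, in HFD Tert 26, while both stood at 0 counts in HFD Tert 27, and Myh4, the fast myosin, had 0 counts in every library. Of the 12 skeletal muscle markers that passed the filter, 8 were lower for diet (median -0.41). In HFD Tert 9 were higher (median 0.65), and in HFD TertCi 6 were higher and 6 lower (median 0.076). Most markers of 2 further cell types had the diet and knock-in signs of the contractile genes. Of 10 mesothelial markers, 9 were lower for diet (median -1.23) and 9 higher in HFD Tert and in HFD TertCi (medians 1.99 and 1.38). The exception was Wt1, at 38.5, 52.0 and 11.6 CPM in SD mCherry and 33.1, 139.8 and 122.9 CPM in HFD mCherry. The mesothelial sums were 1434 to 4507 CPM in SD mCherry, 394 to 1358 CPM in HFD mCherry, 914 to 2641 CPM in HFD Tert and 1264 to 1715 CPM in HFD TertCi. The keratins Krt8, Krt18 and Krt19, at 1818, 1247 and 694 CPM, made up most of the highest sum, in SD mCherry 2. In HFD Tert 27 these keratins stood at 29.2, 22.3 and 35.3 CPM, while Msln and Upk3b stood at 194 and 256 CPM. Of 6 Schwann cell markers, 6 were lower for diet (median -0.62), 6 higher in HFD Tert (1.46) and 5 higher in HFD TertCi (0.69), and their sum was 50.8 to 176 CPM over the 12 libraries. edgeR called 0 genes of either list. The part of reproductive tract, mesothelial or nerve tissue in the contractile values was not tested. Blood vessel and visceral smooth muscle share Acta2, Myh11, Tagln, Cnn1 and Des, and these 5 genes alone cannot tell the sources apart.

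Across the 12 libraries the 10 genes fell into unlike patterns, described here by the root mean square (RMS) difference between the mean-centred log2(CPM + 0.5) of a pair of genes. The nearest pairs were Myh11 and Des at 0.21 and Acta2 and Tagln at 0.28. Kcnj8 was nearer to Tagln (0.58) than to its channel partner Abcc9 (1.18). Abcc9 was nearest to Mcam (0.39), and Rgs5 to Abcc9 (0.63). The farthest pair was Rgs5 and Cnn1 at 2.98. Points in these comparisons share their library, its depth and its tissue make-up.

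**Figure D4:**
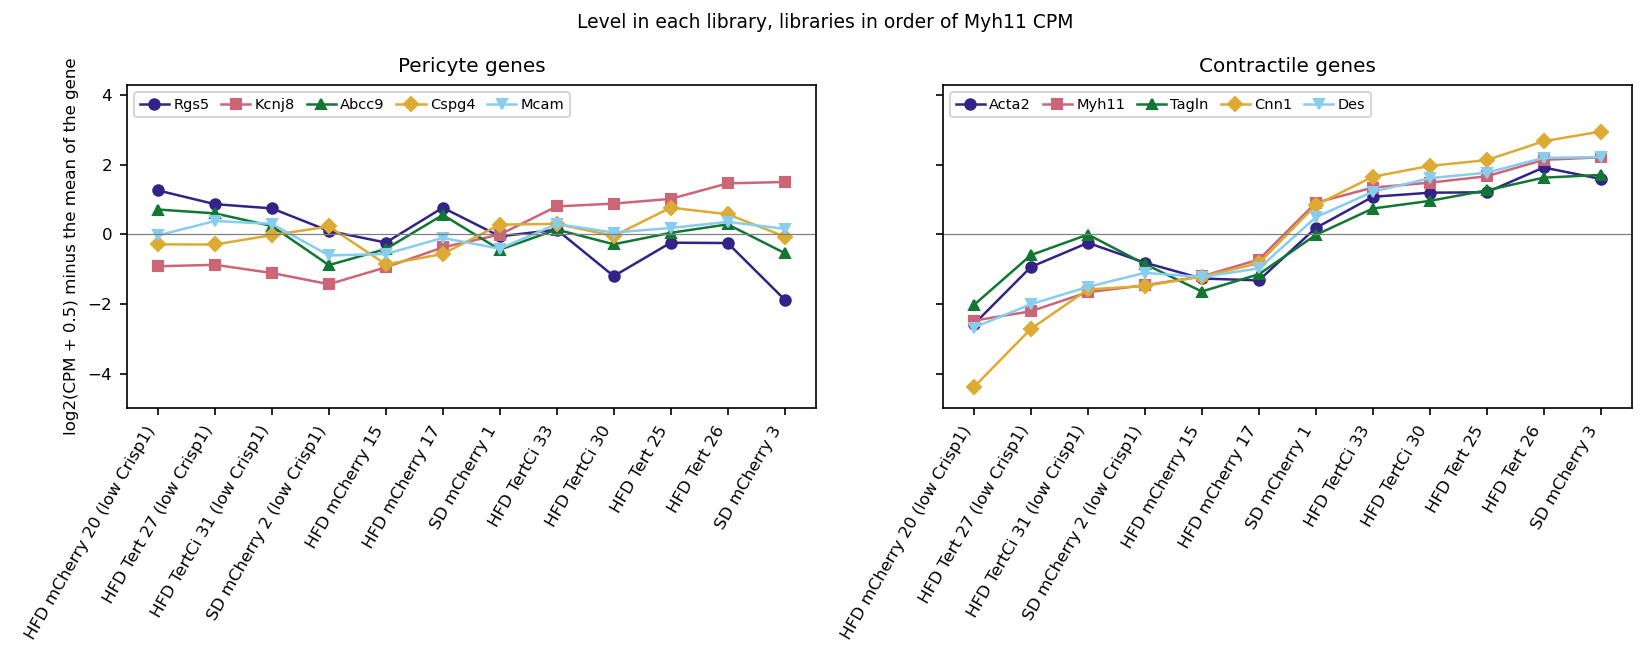
Mean-centred log2(CPM + 0.5) of the pericyte genes (left) and the contractile genes (right) in the 12 libraries, ordered by Myh11 CPM, with the 4 libraries of low Crisp1 marked. The contractile lines and Kcnj8 climb from left to right, Rgs5 runs down, and Mcam stays nearly level.

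The contractile genes also changed in proportion to one another. The ratio of Cnn1 to Acta2 counts was 0.201 to 0.446 in the 4 libraries with low Crisp1 and 0.737 to 1.82 in the 8 others. The ratio of Myh11 to Acta2 was 0.401, 0.443, 0.683 and 1.15 in the 4 and 1.12 to 1.77 in the 8. Tagln kept closer to Acta2, at 1.55 to 2.94 times its counts over all 12. The ratio of Myh11 to Rgs5 counts ran from 0.757 in HFD mCherry 20 to 175 in SD mCherry 3.

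Among the 12356 genes that averaged 5 CPM or more, the 5 nearest to Myh11 were Mylk (RMS difference 0.19), Des (0.21), Mir3100 (0.23), Bves (0.28) and Sgca (0.30), against an RMS deviation of Myh11 itself of 1.71. Mylk is the kinase of the myosin light chain, and Sgca is the sarcoglycan of striated muscle. The 5 nearest to Rgs5 were Cmah (0.25), Abl2 (0.26), C1qtnf1 (0.27), Ahnak (0.27) and Soga1 (0.28), against 0.85 for Rgs5 itself. No other pericyte marker listed here was among these 5.

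Other genes of the pericyte were followed on a list of 16, all of which passed the filter. For diet, 14 were higher and 2 lower, with a median log2 fold change of 1.35, 9 had an unadjusted p under 0.05, all higher, against 14.1% of all genes, and 0 were called by edgeR (lowest adjusted p 0.0729). Pdgfrb, the PDGF receptor of pericytes, averaged 57.5 ± 8.94 CPM (SD, n = 3) in SD mCherry, 198 ± 85.4 CPM in HFD mCherry, 119 ± 63.4 CPM in HFD Tert and 110.0 ± 50.5 CPM in HFD TertCi, a diet difference of 1.79 ± 0.47 on the log2 scale (edgeR adjusted p = 0.0793). Notch3, the Notch receptor of mural cells, averaged 51.4 ± 25.9, 159 ± 75.4, 96.3 ± 29.98 and 94.1 ± 35.3 CPM in the same order, a diet difference of 1.63 ± 0.48 (edgeR adjusted p = 0.0971). Vtn, which encodes vitronectin, differed by 1.79 ± 0.50 and Ndufa4l2 by 1.49 ± 0.44 for diet (edgeR adjusted p = 0.0874 and 0.0973). These 4 genes were among 9 of the 16 that did not overlap between SD mCherry and HFD mCherry. All 9 were higher, against 13.9% of all genes without overlap and higher. Higd1b was low throughout, at 1.95 ± 0.61 CPM in SD mCherry and 4.67 ± 1.73 CPM in HFD mCherry, and Cox4i2 averaged 4.59 ± 2.15 and 4.34 ± 1.11 CPM. The diet sign of this list was that of Rgs5 and Abcc9, not of Kcnj8 and Cspg4. Against HFD mCherry its median was -0.058 in HFD Tert and -0.34 in HFD TertCi, with 0 called. Pdgfrb is also expressed by adipose progenitors, whose 12 markers summed to 7897 to 8681 CPM in SD mCherry and 10710.2 to 33039 CPM in HFD mCherry, and the part of those cells was not tested. One progenitor marker, the PDGF receptor Pdgfra, was the only gene on any of these lists that edgeR called: it averaged 220.5 ± 19.6 CPM in HFD mCherry and 61.6 ± 4.24 CPM in HFD TertCi (SD, n = 3), and fell by 1.84 ± 0.22 on the log2 scale (edgeR adjusted p = 0.0426). Pdgfra also fell by 1.70 ± 0.18 in the averaged knock-in groups (edgeR adjusted p = 0.0119). The sum of 10 macrophage markers was 1021 to 1076 CPM in SD mCherry, 2126 to 5519 CPM in HFD mCherry and 835 to 2295 CPM in the knock-in libraries.

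Other contractile genes, on a list of 18, all tested, had one sign. All 18 were lower for diet, with a median of -1.95 and 9 unadjusted p-values under 0.05 (against 10% of all genes lower at that level), where 54.1% of all genes were lower. All 18 were higher in HFD Tert and in HFD TertCi, with medians of 1.81 and 1.51, where 46.2% and 47.4% of all genes were higher. edgeR called 0 of the 18 in each. Myl9, the regulatory myosin light chain, averaged 1373 ± 1249 CPM (SD, n = 3) in SD mCherry, 287 ± 79.8 CPM in HFD mCherry, 1769 ± 1202 CPM in HFD Tert and 1276 ± 463 CPM in HFD TertCi. Its diet difference was -2.26 ± 0.74 (edgeR adjusted p = 0.119). Mylk differed by -2.67 ± 1.22 and Lmod1, the actin nucleator leiomodin, by -2.50 ± 0.93 for diet. Kcnmb1, the subunit of the smooth muscle calcium-activated potassium channel, averaged 24.3 ± 6.54 CPM in SD mCherry and 5.12 ± 1.63 CPM in HFD mCherry. Its diet difference was -2.25 ± 0.66 (edgeR adjusted p = 0.0947). It was among 6 of the 18 that did not overlap for diet, all lower, against 11.6% of all genes without overlap and lower.

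The regulators of the class, 10 genes, were mixed, with 6 higher and 4 lower for diet, a median of 0.35 and 0 called by edgeR. Myocd, the coactivator myocardin, averaged 11.8 ± 6.44 CPM (SD, n = 3) in SD mCherry, 2.74 ± 0.28 CPM in HFD mCherry, 14.0 ± 11.2 CPM in HFD Tert and 8.04 ± 5.69 CPM in HFD TertCi. Its diet difference of -2.10 ± 0.97 was on the side of the contractile genes but was not called (edgeR adjusted p = 0.215). Among the 10 regulators, SD mCherry and HFD mCherry did not overlap for 2 higher and 1 lower, the latter Myocd, against 13.9% and 11.6% of all genes. Srf, its partner, averaged 324 ± 144 CPM in SD mCherry and 193 ± 24.0, 202 ± 14.3 and 197 ± 20.1 CPM in HFD mCherry, HFD Tert and HFD TertCi. Its means in the 3 high-fat diet groups lay between 193 and 202 CPM, while mean Acta2 ran from 331 to 2230.2 CPM.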

How the data were processed

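RNA of adipose stromal cells was extracted on columns, and mRNA was captured on poly-T beads and copied from random hexamer primers, per the labels' protocols. The values are unnormalized read counts per gene, 1 deposited table a library. Subread, SAMtools, featureCounts 1.6.4 and the build mm10 are named, per the submitters' processing notes. Annotation and strand use are not given in the sources used here. Depth was 16430330 to 19486965 counts. CPM were computed here from these counts and TMM factors.

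Genes were filtered with filterByExpr (16713 of 24422 kept) and tested with edgeR 4.0.16 in R 4.3.3: quasi-likelihood, 12 libraries, 4 groups, no covariate, 2-sided, Benjamini-Hochberg adjustment over all genes, called under 0.05. The common biological coefficient of variation was 0.536. Scripts were tested on simulated data. Alternatives were other scaling, no filter, DESeq2 1.42.0, limma 3.58.1 (voom), only the groups compared, each library left out, an epididymis covariate, the 8 Crisp1 libraries and, added after seeing the data, a Crisp1 term and the other 4 libraries.

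Named genes were the 10 members, 13 companions fixed by name, any list gene called, and the 5 genes nearest to Rgs5 and to Myh11. Akr1b7, Gpx5, Crisp1, Acta1, Ckm and Myh4 were named after their values were seen. Members and lists were chosen with earlier results of these data known.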

Additional observations from a re-analysis of the deposited data

How the results depend on the processing

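Of 1100 values of the 10 genes under the alternatives, 1034 kept their sign without becoming a call, 33 became calls and 33 changed sign. The 1100 include values from the low-Crisp1 libraries alone, which give 1 library a group and no test, so only their sign was compared. Scaling by library size alone called 0.0359% of all genes for diet. Where so few genes are called, staying uncalled says little about a gene. Of the 550 contractile values, 11 changed sign, all in HFD Tert against HFD TertCi. No paired analysis was possible because no replicate number occurs in more than 1 group. What limits the calls was not tested. Scaling by library size alone moved the median of all genes for diet from -0.075 to -0.27, and the contractile median there was -2.67. The cause of the changes below was not tested.

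Members called were 0 in each comparison in the edgeR fit of all 12 libraries with no covariate. With DESeq2 they were 3 for diet, 4 for HFD Tert, 2 for HFD TertCi, 5 for the averaged knock-in groups and 2 over the 4 groups, against 12.9%, 5.12%, 4.3%, 9.41% and 13.8% of all genes called. With the Crisp1 term they were 5 for diet, 4 for the averaged groups and 1 over the 4 groups, against 9.02%, 4.3% and 1.68%. With the epididymis covariate they were 0 for diet, 2 for HFD Tert, 1 for HFD TertCi and 2 for the averaged groups, against 11.3%, 6.5%, 5.7% and 12%. Leaving out 1 library gave 0 to 1 for diet (1 without HFD mCherry 15, against 12.2% of all genes) and 0 to 3 for the averaged groups (3 without HFD Tert 27 and 1 without SD mCherry 3, against 3.06% and 2.82%).

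The contractile median for diet was -1.64 with the covariate, -1.57 in the 4 low-Crisp1 libraries and -3.00 to -1.38 with 1 library left out. In those 4 it was 1.43 for HFD Tert, 1.73 for the averaged groups and -0.59 for HFD Tert against HFD TertCi. In the 8 libraries with Crisp1, genes without overlap numbered 8 for diet, 9 for HFD Tert, 8 for HFD TertCi, 8 for the averaged groups and 7 for HFD Tert against HFD TertCi, against 38%, 46.9%, 42.6%, 31.3% and 39.8% of all genes. Leaving out 1 library gave 4 to 8 for diet (8 without SD mCherry 2, against 35.7% of all genes), 3 to 9 for HFD Tert (9 without HFD Tert 27, 43.3%), 4 to 8 for HFD TertCi (8 without HFD TertCi 31, 39.3%) and 0 to 7 for HFD Tert against HFD TertCi (7 without HFD Tert 27, 21.4%).

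In the 4 low-Crisp1 libraries, Kcnj8 changed sign for diet (0.51), HFD TertCi (-0.19) and the averaged groups (-0.076), Cspg4 for HFD Tert (-0.0036) and against HFD TertCi (-0.27), and, in HFD Tert against HFD TertCi, Acta2 (-0.69), Myh11 (-0.55), Tagln (-0.59), Cnn1 (-1.13) and Des (-0.50). There Ndufa4l2 (0.21) and Myocd (-0.72) changed sign for the averaged groups. Abcc9 for HFD Tert was 0.086 by library size, 0.027 with voom and 0.026 in the 8 libraries. Mcam for diet was -0.18 by library size and -0.22 in the 8. Cox4i2 for diet was 0.0066 with voom, Ndufa4l2 for the averaged groups 0.025 by library size, and Srf for those groups -0.057 with the covariate.

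Leaving out 1 library, HFD Tert against HFD TertCi ran from -0.34 to 0.61 for Rgs5, -0.069 to 0.83 for Kcnj8, -0.30 to 0.80 for Acta2, -0.14 to 1.01 for Myh11, -0.0025 to 0.84 for Tagln, -0.11 to 1.13 for Cnn1 and -0.058 to 1.06 for Des. Abcc9 ran from -0.31 to 0.18 for HFD Tert and from -0.45 to 0.038 for the averaged groups. For diet, Mcam ran from -0.11 to 0.29 and Cox4i2 from -0.29 to 0.37. For the averaged groups, Ndufa4l2 ran from -0.40 to 0.13 and Srf from -0.051 to 0.11.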
